A study of Mus musculus with 6 samples.

Results

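C1q macrophages is the name used here for cells of the dissociated mouse spleen whose barcodes carried transcripts of the complement component C1q. They were chosen by counts: a barcode with 200 or more genes and at most 20% mitochondrially encoded counts had to hold at least 2 counts of C1qa, C1qb and C1qc together, 0 counts of Cd3d, Cd3e and Cd3g, and at most 2 counts of Cd79a, Cd79b and Ms4a1. This rule admitted 60 of 15578 kept cells, or 0.385%, and some of them held many transcripts of other cell types, as given below. The counts of these 9 genes chose the cells, so they are given below as a description and were not tested. The study compared library protocols for long-read sequencing of single cells, with 2 libraries for each of 3 protocols. Every label gives the tissue as spleen, the sex as female and the age as 10 weeks. In the modified 5′ protocol, reverse transcription and cDNA amplification each received an extra 1 µl of dNTP at 10 mM, and extension lasted 2 hours in the first and 3 minutes in the second. The standard 5′ protocol used the same kit with 45 minutes and 1 minute, and the 3′ protocol used the 3′ kit. All cDNA was left unfragmented and read on Oxford Nanopore flow cells. The series text gives the strain as C57BL/6, and names pancreatic islets as the tissue. The extraction text of the replicate 2 libraries also describes islets, against their spleen label. Of 14 pancreas genes looked up, 11 were in the data. They summed to between 0 and 429.6 CPM, which is counts scaled to a common library total, in C1q macrophages. The highest value was that of modified 5′ replicate 2, where other kept cells had 39.3 CPM. In the other libraries with C1q macrophages, other kept cells had 2.44 to 3.62 CPM. These levels cannot settle which tissue was dissociated, which was not tested, and libraries are used here as labelled. No label says that the libraries came from separate animals, so p-values speak only for these libraries, and the spread between them may be technical.

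C1q is the recognition molecule that starts the classical complement pathway, and it is built of A, B and C chains that are made by macrophages rather than by the liver. In the spleen, the macrophages of the red pulp take up worn red cells, break down their haem with haem oxygenase (Hmox1) and send the iron back to the blood through ferroportin (Slc40a1). Their formation depends on the transcription factor Spic, and they carry Vcam1 and F4/80 (Adgre1) on their surface. Marginal zone and metallophilic macrophages, which sit at the border of the white pulp and bear Marco or Siglec1, are other splenic macrophages.

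The C1q chain genes lie side by side on the minus strand of chromosome 4 (mm10, the build named per the submitters' processing notes), with C1qb at 136880129 to 136886187, C1qc at 136889804 to 136893065 and C1qa at 136895917 to 136898803. The promoter windows of C1qb and C1qc are shown because these genes define the cells and were mostly counted together in them. They come from RefSeq (GRCm38.p6), in which 5 of 11 genes looked up had an entry (C1qb, C1qc, Spic, Fcna and Axl, against C1qa, Vcam1, Hmox1, Slc40a1, Csf1r and Trf). C1qb is at chr4:136886151-136886450 and C1qc at chr4:136892865-136893164, each printed 5′ to 3′ on the minus strand, with a motif match in capitals.
C1qb: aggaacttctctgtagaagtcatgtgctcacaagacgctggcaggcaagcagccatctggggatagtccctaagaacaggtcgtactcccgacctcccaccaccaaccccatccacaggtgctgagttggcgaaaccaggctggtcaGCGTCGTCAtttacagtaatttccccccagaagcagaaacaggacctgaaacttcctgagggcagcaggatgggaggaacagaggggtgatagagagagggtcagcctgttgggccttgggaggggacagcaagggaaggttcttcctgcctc
C1qc: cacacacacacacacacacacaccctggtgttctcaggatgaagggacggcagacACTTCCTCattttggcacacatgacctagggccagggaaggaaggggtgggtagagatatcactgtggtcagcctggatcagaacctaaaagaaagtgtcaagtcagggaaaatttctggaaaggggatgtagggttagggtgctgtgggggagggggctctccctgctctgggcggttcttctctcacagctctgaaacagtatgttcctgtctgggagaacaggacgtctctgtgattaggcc
Searches covered both strands. The motif GAGGAAGT, the box bound by the myeloid factor Spi1 (PU.1), is in 3.20% of 32851 promoter windows of this table, and TGACNNNGC, the core of the antioxidant response element known from the Hmox1 gene, is in 12.4%. The C1qc window held 1 match to the first, at base 56 of the printed sequence, and the C1qb window held 1 match to the second, at base 148; the matches did not overlap another motif. The windows of Spic, Fcna and Axl held neither. A match describes letters only.

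The 6 libraries held 20036 barcodes and 11055751 counts, between 723341 and 2627253 counts a library. The standard 5′ replicate 1 library stands apart, since only 861 of its 2532 barcodes were kept and it held no C1q macrophage. The replicate 2 libraries carried 253 to 664 CPM of the beta globin Hbb-bs in the other kept cells, against 23767 to 44445 CPM in the replicate 1 libraries. Of the kept barcodes, 48 sequences occurred in more than 1 library, at most 14 in any pair of libraries, and none of these was a C1q macrophage. C1q macrophages held 46775 counts in all, with a median of 540.5 counts and 400 genes a cell and a range of 257 to 2595 counts. Other kept cells had a median of 510 counts. The label was checked against macrophage genes. At least 1 of 13 macrophage core genes was counted in 58 of the 60 cells, and the receptor for macrophage growth factor, Csf1r, in 24 cells. The core genes summed to 9953 to 21996 CPM over libraries in C1q macrophages, against 1071 to 2086 CPM in other kept cells. They summed to 30454 to 48748 CPM in the monocytes described below, whose rule uses Lyz2 and Csf1r of this list. The list thus does not set C1q macrophages apart from monocytes. Hmox1, the given marker that the rule did not use, was counted in 40 of the 60.

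C1q macrophages numbered 7 and 17 in the modified 5′ libraries (replicates 1 and 2), 0 and 9 in the standard 5′ libraries, and 5 and 22 in the 3′ libraries. As a share of kept cells this was 0.346% (95% exact Clopper-Pearson interval 0.139 to 0.712) and 0.546% (0.319 to 0.873) for modified 5′. It was 0% and 0.281% (0.128 to 0.532) for standard 5′. The 0 of 861 cells has a two-sided interval that ends at 0.428%, and the one-sided limit of 3 counts allows a share of up to 0.348%. For 3′ it was 0.215% (0.0697 to 0.500) and 0.544% (0.341 to 0.822). The intervals cover counting error only. In every protocol replicate 2 had the higher share. Modified 5′ averaged 0.446 ± 0.142%, standard 5′ 0.140 ± 0.198% and 3′ 0.379 ± 0.233% (SD, n = 2 each). None of these differences could be told from the spread between libraries. Modified minus standard 5′ was 0.306 percentage points (exact two-sided permutation p = 0.333, the smallest that 2 against 2 libraries allows), standard 5′ minus 3′ was -0.239 points (p = 0.667), and modified 5′ minus 3′ was 0.0671 points (p = 0.667). Within replicates 1 and 2 these differences were 0.346 and 0.266 points, -0.215 and -0.263 points, and 0.132 and 0.00257 points, of one sign in each contrast. Paired by replicate number, the exact two-sided permutation p was 0.5 in each, the smallest that 2 pairs allow. Without modified 5′ replicate 2 the last difference was -0.0330 points, and without 3′ replicate 1 it was -0.0976 points. Leaving out the standard 5′ replicate 1 library gave 0.166 points for modified minus standard 5′ and -0.0986 points for standard 5′ minus 3′. Replicate 2 averaged 0.457 ± 0.153% and replicate 1 0.187 ± 0.175% (SD, n = 3 each), a difference of 0.270 points (exact two-sided permutation p = 0.2, smallest possible 0.1). Over the 4 contrasts the Benjamini-Hochberg adjusted p-values were 0.667 in each. The share of monocytes was higher by 0.869 points in replicate 2 (exact permutation p = 0.2), with 2.03% and 0.593% in replicates 2 and 1 of modified 5′, 1.56% and 1.63% in standard 5′, where it was lower, and 1.93% and 0.686% in 3′. The replicate number cannot be told apart from the extraction text that goes with it.

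**Figure D1:**
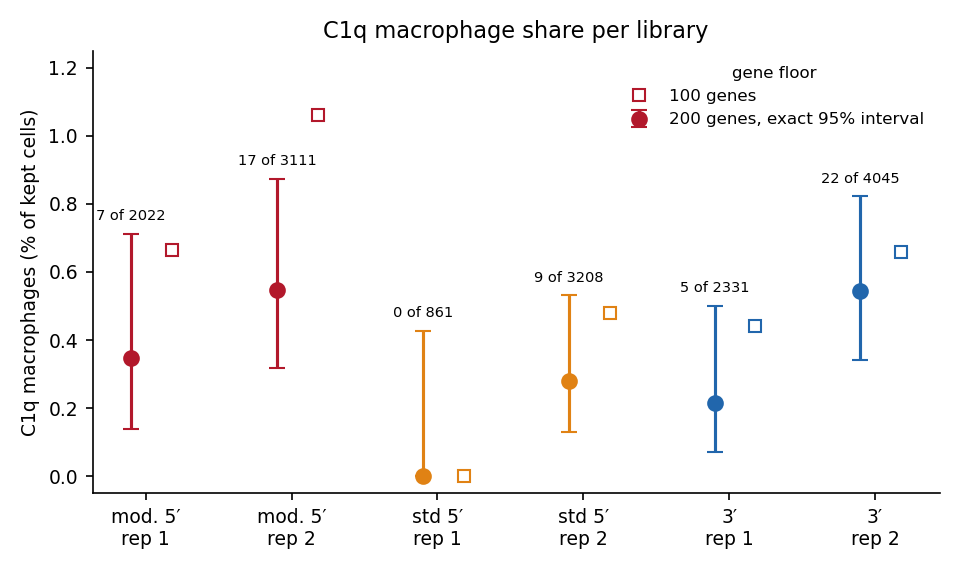
Share of kept cells that were C1q macrophages (y axis, percent) in each of the 6 libraries by protocol (x axis), with 95% exact binomial intervals and the number of cells above each filled point; open squares are the shares at a floor of 100 genes, chosen after seeing the data. At the floor of 200 genes the shares run between 0% (standard 5′ replicate 1) and 0.546% (modified 5′ replicate 2), and the intervals of the protocols overlap.

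The C1q chains were counted together in most of these cells. C1qa had 115 counts in 50 cells, C1qb 143 counts in 49 cells and C1qc 102 counts in 40 cells. All 3 genes were counted in 26 cells (43.3%), 2 of them in 27 cells (45.0%) and 1 of them in 7 cells (11.7%). By library, in the order modified 5′ replicates 1 and 2, standard 5′ replicate 2, and 3′ replicates 1 and 2, C1qa had 991, 2864, 4852, 443 and 2494 CPM. C1qb had 1486, 2578, 5984, 3320 and 3064 CPM in that order, and C1qc had 1115, 2435, 3720, 443 and 2423 CPM. The standard 5′ replicate 2 library had the highest level of each chain, and 2 of its 9 cells, with 37 and 33 C1q counts, held most of them. Each chain was at 0 in the monocytes by construction, and at 1.4 to 10.1 CPM in the other kept cells. At the threshold, 20 of the 60 cells had exactly 2 C1q counts and 40 had 3 or more, with a median of 3.5 and a maximum of 37. Of 72 kept barcodes with 2 or more C1q counts, 3 were set aside for a Cd3 count and 9 for B cell counts. C1q counts also occurred in T cell barcodes, which sets a background for such a rule: 24 of 4490 barcodes with a Cd3 count (0.535%, median 594 counts a barcode) held any C1q count, and 3 of them held 2 or more. Whether these counts came from free RNA or from barcodes with more than 1 cell was not tested.

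Red pulp genes, which the rule did not use, were counted in most C1q macrophages, and more often the more C1q a cell held. Vcam1, an adhesion molecule of red pulp macrophages, was counted in 43 of the 60 cells (71.7%). Hmox1 was counted in 40 cells (66.7%), Slc40a1 in 38 (63.3%) and Spic in 25 (41.7%). In barcodes with a Cd3 count, of similar median depth, the shares were 0.223%, 0.267%, 0.156% and 0.401% in that order. At least 2 of these 4 genes, a set chosen after their values were seen, were counted together in 34 of the 40 cells with 3 or more C1q counts (85%) and in 10 of the 20 cells with exactly 2 (50.0%). Just outside the rule, among cells passing its other clauses, this held for 8 of 44 cells with 1 C1q count (18.2%) and for 13 of 3701 cells with none (0.351%). Per 10000 counts the 4 genes made up 112 counts in the cells with 3 or more C1q counts, 30.2 in those with exactly 2, 9.53 in those with 1 and 0.725 in those with none. These values are a description with no test. By library, at least 2 of the 4 were counted in 4 of 7 and 12 of 17 modified 5′ cells, in 7 of 9 standard 5′ cells, and in 1 of 5 and 20 of 22 cells of 3′ replicates 1 and 2. The 3′ replicate 1 library was the low one, with 3 of its 5 cells holding none of the 4, and a median of 2 C1q counts a cell.

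**Figure D2:**
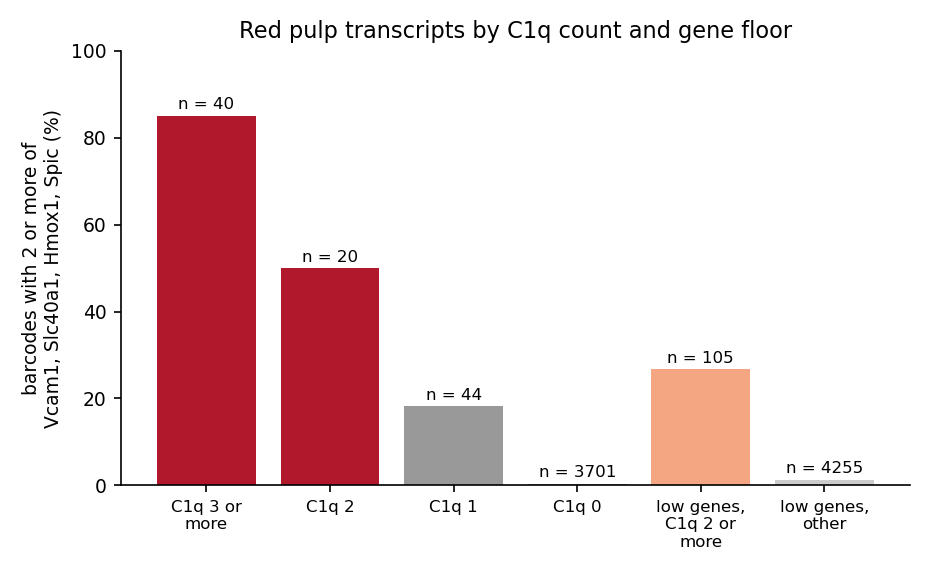
Percent of barcodes (y axis) with at least 2 of Vcam1, Slc40a1, Hmox1 and Spic, by the number of C1q counts (x axis), for kept cells that pass the other clauses of the rule (red bars are C1q macrophages, n is the number of barcodes) and, in the 2 bars on the right, for barcodes with fewer than 200 genes. The share is 85% at 3 or more C1q counts, 50.0% at exactly 2, 18.2% at 1 and 0.351% at 0, and below the gene floor it is 26.7% of barcodes that pass every other clause and 1.27% of the rest.

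Most members thus had a red pulp profile, but not every cell did. Lyz2, the lysozyme gene that is high in monocytes, had 133 counts in the C1q macrophages, and 129 of them sat in 6 cells with 8 or more each, a cut chosen after the values were seen. These 6 cells held a median of 1 red pulp count (range 0 to 6) and a median of 41 counts of Cd74, the MHC class II invariant chain. The other 54 cells held 4 Lyz2 counts in all, a median of 6 red pulp counts (range 0 to 28) and a median of 2 Cd74 counts. Their depth differed too, with a median of 1129.5 counts a cell in the 6 and 506.5 in the 54. The 2 standard 5′ cells with 37 and 33 C1q counts were among the 6. They held 98 and 70 counts of Cd74, 45 and 26 of H2-Aa, 32 and 19 of Lyz2, and 1 and 0 of the red pulp genes. Among these 6 a high C1q count did not go with a high red pulp count. Genes of the marginal zone and metallophilic list were counted in 20 of the 60 cells, 5 of 6 of them, with a sum of 248 to 885 CPM over libraries in C1q macrophages, against 16.1 to 30.2 CPM in other kept cells and 64.2 to 426.0 CPM in monocytes. Among its surface markers Marco was counted in 3 cells and Siglec1 in 2. Genes of the dendritic cell list were counted in 35 cells, 13 of 15 of them, with a sum of 1432 to 2477 CPM in C1q macrophages, against 743 to 891 CPM in other kept cells and 1034 to 1604 CPM in monocytes. Of 6 of these tested against other kept cells, Sirpa and Batf3 were higher, and Cd24a was lower with TMM factors, the main scaling, though not with RLE factors or totals. Of 8 tested against monocytes, Cd209a was lower with TMM factors and totals, and Sirpa higher with RLE factors and totals. The dendritic cell receptor Flt3 was at 0 counts. One cell of modified 5′ replicate 1 held 145 counts of Cst3, 118 of Cd74 and 54 of H2-Aa, with 2 C1q counts and 0 red pulp counts. The part of dendritic cells in the results was not tested.

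**Figure D3:**
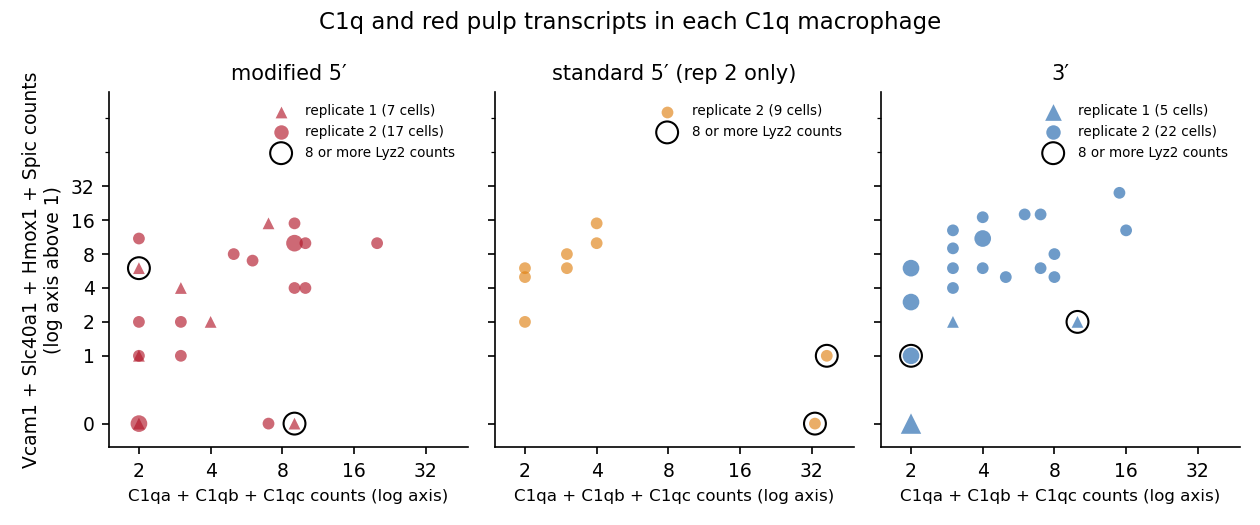
C1q counts (x axis, log) against summed Vcam1, Slc40a1, Hmox1 and Spic counts (y axis, linear to 1 and log above) for each of the 60 C1q macrophages, by protocol; triangles are replicate 1, circles replicate 2, larger symbols mark several cells at 1 place, and rings mark the 6 cells with 8 or more Lyz2 counts. The ringed cells lie between 0 and 6 red pulp counts, and the 2 standard 5′ cells with most C1q hold 1 and 0.

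Transcripts of red cells and of antibody-making cells were abundant in 9 of the 60 cells. In all, 6 cells held 100 or more globin counts: 3 of 7 in modified 5′ replicate 1, 2 of 9 in standard 5′ replicate 2 and 1 of 22 in 3′ replicate 2. In percent this was 42.9, 22.2 and 4.55 of the C1q macrophages, against 2.28, 0.125 and 0.199 of the other kept cells of the same libraries. Another 3 cells, all of modified 5′ replicate 2, held 100 or more counts of Igkc, Ighm and Jchain. No monocyte reached either limit. The summed erythroid list ran between 71.6 and 293535 CPM over libraries in C1q macrophages, 574 and 62417 CPM in other kept cells and 47.0 and 940 CPM in monocytes, with 2 of its 15 genes at 0 in C1q macrophages. The B cell list ran between 372 and 247100 CPM in C1q macrophages, against 15664 and 39114 CPM in other kept cells. Among T cell genes 10 of 14 were at 0, which the rule's Cd3 clause favours. The part of these transcripts in the results was not tested and no doublet caller was run. Results that rest on these 9 cells are given without them.

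Set against all other kept cells, C1q macrophages had higher levels of genes for red pulp identity, iron handling and uptake of cells. Counts were summed per library in each class, and the 5 libraries with C1q macrophages gave 5 pairs, tested with edgeR's quasi-likelihood test, the library as a block, at a Benjamini-Hochberg adjusted p of 0.05. Deep cells weighed heavily in some sums. In modified 5′ replicate 2, the 3 cells rich in antibody transcripts held 2459, 2595 and 2243 of 13966 counts. In 3′ replicate 1, 1 cell held 2395 of 4518 counts. In modified 5′ replicate 1, the deepest cells held 2375, 1927 and 1366 of 8074 counts. Levels by library are thus those of the sums and need not be those of a typical cell. Of 3750 genes with a mean of at least 50 CPM, 208 were higher (5.55%) and 591 lower (15.8%) in C1q macrophages, 799 in all (21.3%). The split depended on the scaling: the median gene lay at -0.81 on the log2 scale with TMM factors, -0.18 with RLE factors, which gave 270 higher and 248 lower, and -0.07 with plain library totals, which gave 284 and 204. All 208 higher calls were made under all 3 scalings, and 204 of the 591 lower ones, so a gene is called lower here only where all 3 gave it. Without the standard 5′ replicate 2 library 515 genes were called, and without the 2 libraries of fewer than 10 cells among replicate 1 (chosen after seeing the data) 214 were higher and 390 lower. The filter takes the mean of both classes, so a gene seen almost only in C1q macrophages passes through their own level, and the list counts that follow are descriptions.

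Among red pulp and iron-recycling genes, 13 of 18 tested were higher and none lower, with a median log2 difference of 4.73 (16 higher under RLE factors or totals). Vcam1 had 1239 and 2721 CPM in the modified 5′ C1q macrophages of replicates 1 and 2, 4205 CPM in the standard 5′ ones of replicate 2, and 221 and 4703 CPM in the 3′ ones of replicates 1 and 2, against 0 to 16 CPM in other kept cells. Every pair lay the same way and the groups did not overlap, the lowest C1q macrophage value being that of 3′ replicate 1. The log2 difference was 7.68 ± 0.55 (SE, edgeR adjusted p = 5.53e-41). With 4 residual degrees of freedom, such a p-value draws on a spread estimated over all genes. It does not measure the spread of the Vcam1 values alone. Hmox1, which opens the haem ring, had 991, 1790, 2103, 443 and 3919 CPM in C1q macrophages in the same order of libraries, against 8.0 to 25.6 CPM in other kept cells. Its log2 difference was 5.98 ± 0.50 in 5 of 5 pairs. Slc40a1, the iron exporter, had 867, 1647, 1132, 0 and 4489 CPM in C1q macrophages, against 3.8 to 13.7 CPM in other kept cells. It was higher in 4 of 5 pairs, and at 0 in the 5 cells of 3′ replicate 1 (log2 difference 7.20 ± 0.57). Spic had 372, 644, 1132, 221 and 998 CPM in C1q macrophages, against 3.6 to 13.7 CPM in other kept cells (log2 difference 6.03 ± 0.55, 5 of 5 pairs). Fcna, the lectin ficolin A, had 372, 1217, 323, 221 and 1211 CPM against 0.6 to 10.9 CPM (7.20 ± 0.57). Trf, the iron carrier transferrin, had 991, 1575, 970, 0 and 998 CPM in C1q macrophages against 8.2 to 20.7 CPM in other kept cells, a log2 difference of 5.20. The haemoglobin scavenger receptor Cd163 (6.64), the lipid-binding protein Cd5l (6.65 ± 0.96) and the metal transporter Slc11a1 (5.39) were also higher. Of the ferritin chains, Ftl1 was higher, at 1.76 ± 0.38, and lost the call among cells with 3 or more C1q counts (0.93), while Fth1 was not called (0.59), but was with RLE factors (1.26).

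**Figure D4:**
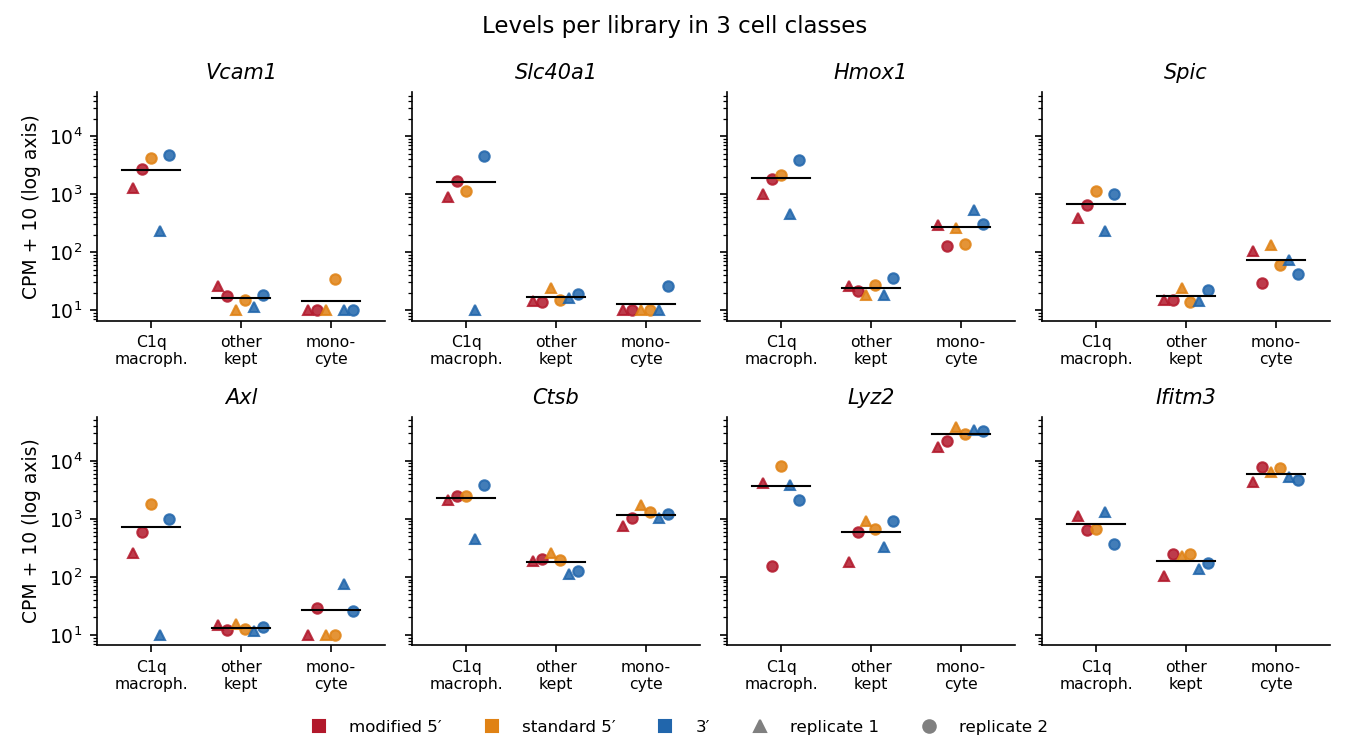
Level of named genes (y axis, CPM + 10 on a log axis, so that 0 CPM is drawn at 10) in C1q macrophages, other kept cells and monocytes of each library; triangles are replicate 1, circles replicate 2, colours are protocols and the line is the mean over libraries. Vcam1 lies between 221 and 4703 CPM in C1q macrophages and between 0 and 16 CPM in other kept cells.

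Receptors for the uptake of cells and particles were higher in 10 of 14 tested and lower in none, with a median log2 difference of 4.67. Axl, a receptor that binds dying cells through bridging proteins, had 248, 573, 1779, 0 and 998 CPM in C1q macrophages, against 1.7 to 5.5 CPM in other kept cells, a log2 difference of 7.05 ± 0.61. Its relative Mertk was counted in 14 of the 60 cells, and had 0, 430, 323, 0 and 713 CPM against 0 to 1.0 CPM (8.89 ± 1.03). Both were at 0 in 3′ replicate 1, the library of 5 cells. The mannose receptor Mrc1 (6.64 ± 0.72), the scavenger receptor Stab2 (8.84 ± 1.17) and the Fc receptors Fcgr1 (5.23), Fcgr4 (5.13) and Fcgr3 (4.21) were also higher. Clec4n, the pattern receptor dectin-2, was higher by 7.22 ± 0.85. Stab2 also stood in the endothelial list, whose other tested gene was not called.

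Of macrophage core genes 10 of 11 tested were higher and none lower, with a median of 2.92. Adgre1 was higher by 6.23 ± 0.80, Sirpa, the receptor of the self marker CD47, by 4.75 ± 0.50, Csf1r by 4.53 ± 0.49, Aif1 by 4.38 ± 0.52 and the Fc receptor chain Fcer1g by 2.49 ± 0.40. Csf1r had 124, 430, 1294, 885 and 1710 CPM in C1q macrophages, against 13.2 to 26.4 CPM in other kept cells. Lyz2 passed too, at 1.62 ± 0.43, but the 6 cells named above held nearly all of it, and without the modified 5′ replicate 1 library the difference was 0.99 and not called. Cd68 was higher by 2.54, a call lost without modified 5′ replicate 2 (2.23) and without 3′ replicate 2 (1.99).

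Transcription factors were higher in 7 of 11 tested and lower in none, with a median of 2.38. Nr1h3, the liver X receptor alpha of cholesterol handling and of marginal zone macrophage formation, was higher by 5.53 ± 0.80. Tcf7l2, a factor of Wnt signalling, was higher by 5.29 ± 0.83 and the repressor Zeb2 by 2.38. Spi1 was not called (1.03), though it was with RLE factors (1.70).

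Lysosomal genes moved less: 10 of 31 tested were higher and none lower, with a median of 0.74, against -0.81 over all genes (15 higher under RLE factors or totals). The protease Ctsb had 2106, 2506, 2426, 443 and 3777 CPM in C1q macrophages, against 101 to 243 CPM in other kept cells (2.96 ± 0.43, 5 of 5 pairs). Lamp1, a membrane protein of the lysosome, was higher by 2.54 ± 0.50 and the saposin precursor Psap by 2.09 ± 0.39. Ctsd, at 1.58, was not called without modified 5′ replicate 2 (1.34) or without 3′ replicate 2 (1.03). Of lipid genes 3 of 12 were higher, Hpgd, which degrades prostaglandins, by 5.16 ± 0.52, Nr1h3 and the lipid carrier Apoe. Apoe had 3839, 2363, 4367, 221 and 3492 CPM in C1q macrophages against 185 to 326 CPM in other kept cells (2.38 ± 0.41). It was counted in 38 of the 60 cells. But in modified 5′ replicate 1, 1 cell held 30 Apoe counts, and in standard 5′ replicate 2, 1 cell held 17, most of the counts in each. Pla2g7, which inactivates platelet-activating factor, and the heparan sulphate proteoglycan Sdc3 were higher by 5.00 ± 0.70 and 5.22 ± 0.76.

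Complement genes other than C1q were tested for 6 of 19, with 2 higher: properdin (Cfp), which stabilises the alternative pathway convertase, by 3.60 ± 0.47, and C6, a component of the membrane attack complex, by 7.36 ± 1.11. Cfp had 248, 1289, 970, 221 and 855 CPM in C1q macrophages, against 12.6 to 51.2 CPM in other kept cells. Of chemokines and cytokines 4 of 7 were higher, among them Igf1 (6.60 ± 0.96), Il1b (4.43) and Il18 (4.12). Il1b rested on 6 cells. Slpi, a secreted inhibitor of proteases, was higher by 3.18 ± 0.47.

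The genes of MHC class II, which present antigen, summed to 7447 to 61297 CPM over libraries in C1q macrophages, against 14974 to 39807 CPM in other kept cells, and the groups overlapped. None of 10 genes was called higher, and H2-DMb2 (-4.50 ± 0.76) and H2-Ob (-3.83 ± 0.80), which edit the peptide load mainly in B cells, were lower under all scalings. Cd74 had 14739, 4869, 30082, 12395 and 7339 CPM in C1q macrophages against 7764 to 22738 CPM in other kept cells, and the groups overlapped. Its lower call (-1.25) was lost with RLE factors (-0.57) and totals (-0.41). The highest level was that of standard 5′ replicate 2, where 2 cells held 98 and 70 of the 186 counts. In modified 5′ replicate 1, 1 cell held 118 Cd74 counts, and in 3′ replicate 1, 1 cell held 48, most of the counts in each. The 54 cells with fewer than 8 Lyz2 counts had a median of 2 Cd74 counts, so the overlap does not describe a typical cell. Interferon-stimulated genes were higher in 3 of 10 (Ifitm3, Ifitm2 and Irf7), and the calls lay near the threshold. The log2 differences were 1.34 ± 0.45, 1.76 ± 0.58 and 1.51 ± 0.59 in that order (edgeR adjusted p = 0.0191, 0.0162 and 0.0483). The calls were lost without modified 5′ replicate 1 (0.92, 1.41 and 1.53 in that order), modified 5′ replicate 2 (1.36, 1.63 and 1.51) or 3′ replicate 2 (1.40, 1.37 and 1.54). Ifitm3 and Irf7 were also lost without 3′ replicate 1 (1.11 and 1.27), and Irf7 without standard 5′ replicate 2 (1.32). Immediate early genes, which mark stress of dissociation, were called in 0 of 12 against other kept cells. The mitochondrial genes, 5 of 7 lower with TMM factors, were called in 0 of 7 with RLE factors or totals. Of T cell genes 9 of 11 were lower with TMM factors (8 with RLE factors or totals) and of B cell genes 10 of 10 (9 with totals), a direction that the Cd3 and Cd79 clauses of the rule favour. No clause counts the antibody genes, though the Cd79 clause, which removes B cells, favours lower levels of them too. They were not lower in every library: Igkc, Ighm and Jchain were higher in 1 of 5 pairs each. Without the library as a block (no replicate block) they were at 0.44, 1.42 and 1.64 and not called.

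Of globin genes, Hbb-bs was higher by 1.89, Hbb-bt by 2.21 and Hba-a2 by 2.20. Hbb-bs was higher in 3 of 5 pairs. Without the 9 cells named above Hbb-bs was at -5.96 and Hbb-bt at -6.52, and Hba-a2 turned negative too, with 0 counts left in C1q macrophages. But these cells were picked by such transcripts and the other kept cells kept theirs, so the turn follows from the choice of cells and tests nothing.

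The monocyte comparator asks which of these differences set C1q macrophages apart from the other mononuclear phagocytes of the same libraries. It held 233 kept cells with 0 C1q and 0 Cd3 counts, at most 2 B cell counts, at least 1 Lyz2 count, at least 3 counts of Lyz2, Ms4a6c, Ccr2, F13a1, Fn1 and Csf1r together, and at most 2 of S100a8 and S100a9. They had a median of 736 counts a cell and numbered 12 and 63 in modified 5′, 14 and 50 in standard 5′, and 16 and 78 in 3′ replicates 1 and 2. Of 3720 genes tested, 95 were higher in C1q macrophages (2.55%) and 249 lower (6.69%), 344 in all (9.25%). The median gene lay at -0.50 with TMM factors, at 0.22 with RLE factors (154 higher, 65 lower) and at -0.18 with totals (96 higher, 115 lower). Of the calls, 89 higher and 65 lower were made under all 3 scalings, and DESeq2 called 44 genes. Unlike above, the counts of lower genes in lists against monocytes are those with TMM factors, not limited to calls under all 3 scalings. Without 3′ replicate 2, the library with most C1q macrophages, 152 genes were called, without modified 5′ replicate 2 209, and without standard 5′ replicate 2 212. The granule genes Elane and Mpo of neutrophil precursors had 0 counts in C1q macrophages, against 79 and 45 in monocytes. The neutrophil list ran between 0 and 1425 CPM in C1q macrophages and 64.2 and 11843 CPM in monocytes; the part of such cells in the comparator was not tested.

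Among red pulp genes 10 of 18 tested were higher and 1 lower, with a median log2 difference of 2.14. The filter again takes the mean of both classes, so genes at 0 in monocytes passed it only through their level in C1q macrophages. The list counts against monocytes, here and below, are therefore descriptions. Vcam1 was at 0 in 5 of 6 monocyte sums and at 25.1 CPM in that of standard 5′ replicate 2, against 221 to 4703 CPM in C1q macrophages (7.91 ± 0.65, edgeR adjusted p = 5.05e-30). Slc40a1 was at 15.7 CPM in the monocytes of 3′ replicate 2 and at 0 in those of the other libraries (7.43 ± 0.68). Hmox1 was shared more widely: its level in C1q macrophages, given above, stood against 282 and 116 CPM in modified 5′ monocytes, 249 and 125 CPM in standard 5′ monocytes and 514 and 298 CPM in 3′ monocytes. The log2 difference was 2.68 ± 0.41 in 4 of 5 pairs, with 443 CPM against 514 CPM in 3′ replicate 1. Fcna (5.41 ± 0.72), Spic (3.72 ± 0.61) and Blvrb, which reduces biliverdin (2.76 ± 0.52), were also higher. Cd163 was higher by 3.27, not called without 3′ replicate 2 (1.22), and Trf by 1.60, not called without modified 5′ replicate 2 (1.08) or 3′ replicate 2 (1.64). The haem transporter Slc48a1 was higher by 2.99, not called without standard 5′ replicate 2 (2.72) or 3′ replicate 2 (2.85). Cd5l had 17 counts in C1q macrophages and 0 in monocytes, which is at least 22.0-fold higher against a floor of 3 counts over all monocytes. Of these, 12 came from 3′ replicate 2, without which Cd5l was not called (4.53). The ferritin chains did not differ beyond their error, at 0.31 ± 0.48 for Ftl1 and 0.26 for Fth1. Ftl1 had 7525 to 18114 CPM in C1q macrophages and 6263 to 11440 CPM in monocytes.

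Among uptake receptors 4 of 14 were higher and 1 lower. Axl was higher by 4.87 ± 0.69 and Mrc1 by 4.07 ± 0.68. Mertk had 18 counts in C1q macrophages and 0 in monocytes (at least 23.3-fold higher) and Stab2 9 and 0 (at least 11.7-fold). Stab2 was not called without modified 5′ replicate 2 (4.56) or 3′ replicate 2 (4.53). The Fc receptor Fcgr3 was not called (-0.42), with the median of the list at 0.25. Nr1h3, at 1.90, passed only with RLE factors or totals. Adgre1 was higher by 2.21 and lost the call without any 1 of modified 5′ replicate 2 (2.00), standard 5′ replicate 2 (2.14) or 3′ replicate 2 (2.15). Slpi had 495, 1647, 1456, 443 and 1924 CPM in C1q macrophages against 0 to 470 CPM in monocytes (2.86 ± 0.45), and Cfp was higher by 2.79 ± 0.53. Igf1 had 17 counts against 0, and C6 11 against 0 (at least 22.0-fold and 14.2-fold higher). Igf1 was not called without 3′ replicate 2 (4.17). Dnase1l3, an extracellular DNase, was higher by 3.05, and not called without the 2 libraries of fewer than 10 cells among replicate 1 (2.41). Asb2, a ubiquitin ligase adaptor, was higher by 4.78 ± 0.94 and the haem-binding protein Hebp1 by 4.21 ± 1.07. Hebp1 was not called without modified 5′ replicate 2 (3.40) or 3′ replicate 2 (3.62), nor was the acid phosphatase Acp5, at 3.75 ± 0.80, without 3′ replicate 2 (2.77).

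Against monocytes few lysosomal genes and no MHC class II gene were called. Of 30 lysosomal genes 2 were higher and 3 lower, with a median of -0.30 against -0.50 over all genes. Ctsb had 752 to 1741 CPM in monocytes, and its log2 difference was 0.70 ± 0.37. Psap (-0.65), Lamp1 (0.08) and Apoe (0.51) were not called. Of 7 MHC class II genes 0 were called, at a median of 0.59, and 3 were higher with RLE factors. Their list summed to 4624 to 24741 CPM in monocytes.

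Lower in C1q macrophages were genes of circulating monocytes. Of the monocyte list, from which the genes of the comparator's rule were left out, 5 of 8 were lower and none higher, with a median of -3.38, or -2.89 with genes at 0 set to their bound. The comparator's rule favours this direction, since it picks cells by counts of monocyte genes, and leaving those genes out does not remove that. Plac8 had 124, 143, 0, 1992 and 356 CPM in C1q macrophages, against 3008 to 5663 CPM in monocytes (-4.10 ± 0.51, lower in 5 of 5 pairs). Ly6c2, the antigen of inflammatory monocytes, had 124, 501, 323, 0 and 784 CPM against 1220 to 6093 CPM (-2.84 ± 0.44). The highest C1q macrophage value of Plac8, in 3′ replicate 1, rested on 9 counts. Chil3 was at 0 counts in C1q macrophages, at least 7.72-fold lower against a floor of 3 counts. The intermediate filament gene Vim (-4.06 ± 0.51), the methionine sulfoxide reductase Msrb1 (-4.22 ± 0.56), Ifitm6 (-4.64 ± 0.68) and the chemokine Ccl6 (-2.86 ± 0.48) were lower too. Interferon-stimulated genes were lower in 5 of 13 and higher in none (3 lower under RLE factors or totals), with a median of -1.73. Ifitm3, a membrane protein that restricts viruses, had 1115, 644, 647, 1328 and 356 CPM in C1q macrophages, against 4230 to 7770 CPM in monocytes (-3.33 ± 0.48, 5 of 5 pairs). Immediate early genes summed to 743 to 2921 CPM in C1q macrophages and 2996 to 3559 CPM in monocytes. Klf4, Nr4a1 and Klf2 of that list were called with TMM factors. Klf4 had 0 counts in C1q macrophages against 26 in monocytes, and lost its call in 6 alternatives. Globin and antibody genes were higher than in monocytes, Hbb-bs by 7.19, Igkc by 4.24 and Ighm by 2.38, and were not called without the 9 cells named above (0.55, 1.80 and 0.61), which were picked by these transcripts.

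**Figure D5:**
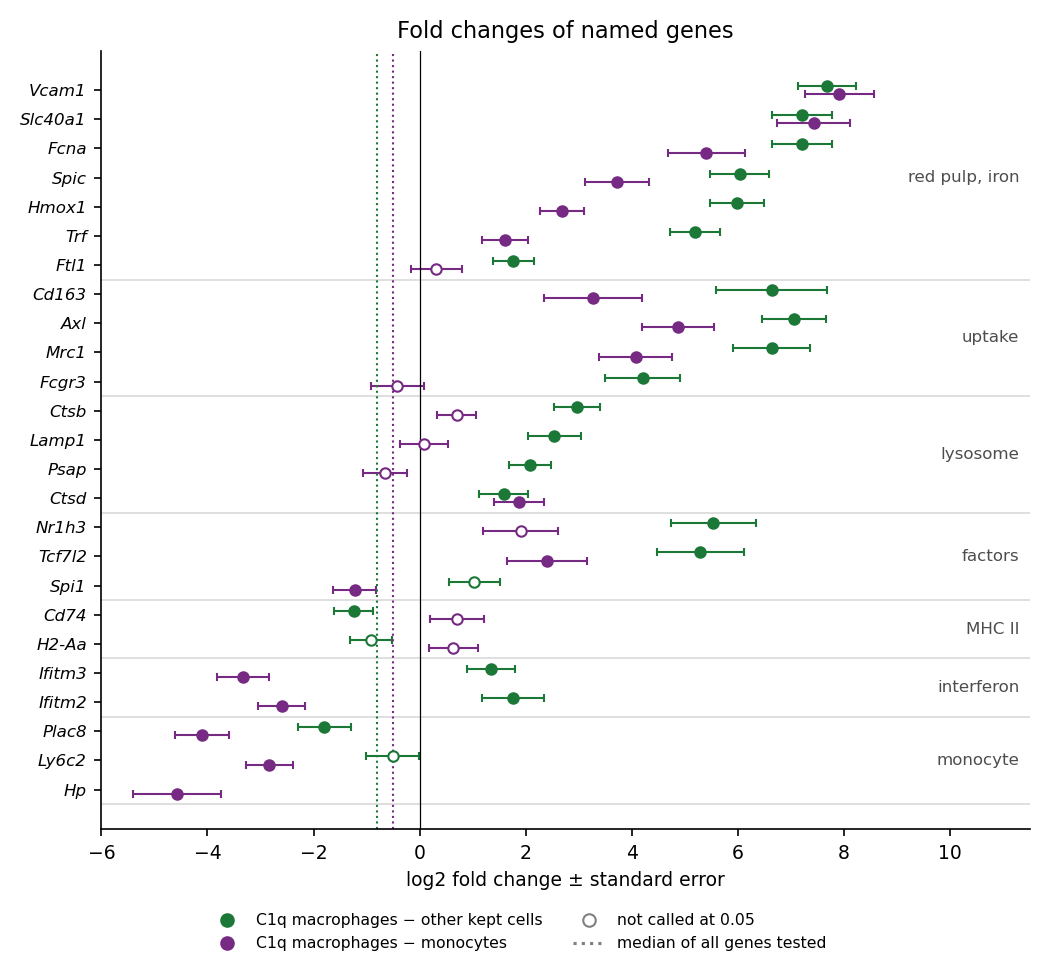
Log2 differences (x axis, ± SE) of named genes by role (y axis), C1q macrophages minus other kept cells and minus monocytes, with filled points for calls at an adjusted p of 0.05 by edgeR with TMM factors and dotted lines at the medians of all genes tested (-0.81 and -0.50). Vcam1 lies at 7.68 and 7.91, whereas Psap lies at 2.09 and -0.65.

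Between protocols no gene was called within the C1q macrophages. Of 144 genes that passed the count filter, edgeR called 0 (0%) for modified minus standard 5′, with 1 at an unadjusted p under 0.05, 0 (0%) for standard 5′ minus 3′ with 3, and 0 (0%) for modified 5′ minus 3′ with 7. DESeq2 called 0 in each. The errors were wide, with 1 standard 5′ library: Vcam1 gave -0.64 ± 1.54, Hmox1 -0.14 ± 1.34 and Ctsb 0.37 ± 1.34 for modified minus standard 5′ (log2, SE). Without modified 5′ replicate 1, 3 genes were called for modified minus standard 5′ and 5 for modified 5′ minus 3′. For replicate 2 minus replicate 1, within protocols, edgeR called 0 (0%) of 144 genes, with 13 at an unadjusted p under 0.05. Slc40a1 was at 2.65 ± 1.16 and Vcam1 at 2.52 ± 1.05 (edgeR adjusted p = 0.496 each), and Hmox1 at 2.05 ± 0.86. The replicate 2 libraries were the higher ones in Vcam1, Slc40a1 and Hmox1 in both protocols with both replicates. Whether a protocol effect in C1q macrophages differed from that in other kept cells was tested as an interaction over 3750 genes. It was called for 1 gene (0.0267%) for modified minus standard 5′, for 0 (0%) for standard 5′ minus 3′, with 21 at an unadjusted p under 0.05, and for 0 (0%) for modified 5′ minus 3′, with 45; DESeq2 called 0 in each. The 1 gene was Hbb-bs, and it was not called without the 9 cells named above.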

How the data were processed

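For each library the authors deposited whole-number counts of gene symbols by cell barcode. Per the submitters' processing notes the build was mm10, and Seurat, with no version, was used in some way for replicate 2. Aligner, annotation, strand use, cell calling and molecule collapsing: not given in the sources used here. Depth limits precision through counts that may not be independent molecules. Members and gene lists were chosen with earlier results of these data known.

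Barcodes were filtered and classed by the counts given in the report, and counts were summed per library and class. Sums were tested with edgeR 4.0.16 (glmQLFit, glmQLFTest, TMM, Benjamini-Hochberg at 0.05; R 4.3.3, limma 3.58.1), with DESeq2 1.42.0 as an alternative. Comparisons of classes kept genes with a mean of at least 50 CPM and had the library as a block; comparisons of protocols within members used filterByExpr and 1 fit of 5 libraries, since the planned sixth held no member. The 9 genes of the rule, and the 17 of both rules against monocytes, were left out. The code was tested on simulated sums with known changes. There, unchanged genes had a median log2 difference of -0.83 with TMM factors and 0.01 with totals against other kept cells. Against monocytes the medians were -0.45 and 0.04. With TMM factors 19 and 3 unchanged genes were falsely called lower in the 2 comparisons, and 0 higher in each. The log2 differences printed use TMM factors unless stated, and may lie too low by such a shift. Each SE printed with one is its absolute value divided by the square root of edgeR's F statistic. Shares were compared by exact permutation over libraries (scipy 1.17.1). A list's count and median stand beside the same over all genes and are called nothing particular to the list.

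Named genes were, per comparison, the 12 largest rises and falls of called genes averaging 100 CPM or more that moved one way in every library, the 4 most abundant and up to 4 most changed genes of each list, and the markers. Fcgr1, Fcgr3, Fcgr4, Slc11a1, Slc48a1, Cd163, Trf and C6, and the sets of 4 red pulp genes and of Lyz2 cells, were chosen outside that rule after their values were seen. One gene that the rule names is not reported here and was left out of its list. Coordinates are those of the annotation tables given for mm10. Library sums of other kept cells differed by more than sampling noise in every pair (smallest chi-square per degree of freedom 3.54), so each library was counted as 1 sample. Same-numbered libraries deviated together in other kept cells (correlations 0.477, 0.532 and 0.717 over 3433 genes), so replicate numbers pair libraries here. In C1q macrophages only modified 5′ and 3′, from 7 and 5 replicate 1 cells, could be compared (-0.0373 over 3673 genes).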

Additional observations from a re-analysis of the deposited data

Results flagged for a closer look

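Hbb-bs, a beta globin, was the only gene of 3750 whose protocol effect (modified minus standard 5′) differed between C1q macrophages and all other kept cells, with an interaction of -4.68 ± 0.98 on the log2 scale (edgeR adjusted p = 0.00663). In C1q macrophages it had 183924 and 0 CPM in modified 5′ replicates 1 and 2, against 48358 CPM in standard 5′ replicate 2. In other kept cells it had 23767 and 253 CPM in modified 5′, against 44445 and 664 CPM in standard 5′. The fit compares C1q macrophages with other kept cells within each library, where the ratio was 7.74 and 0 in modified 5′ replicates 1 and 2, against 72.9 in standard 5′ replicate 2. Mean levels run the other way, since modified 5′ replicate 1 holds by far the most. The counts sat mainly in 3 cells of modified 5′ replicate 1 and 2 cells of standard 5′ replicate 2. The call was lost without the 9 cells rich in globin or antibody transcripts, which include these 5, and without modified 5′ replicate 2, when 0 genes were called.

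A signal lay in barcodes outside the main measurement. Of barcodes with fewer than 200 genes, 105 passed every other clause of the rule, 18 and 23 in modified 5′, 14 and 22 in standard 5′, and 10 and 18 in 3′ replicates 1 and 2. They had a median of 95 genes and 114 counts. At least 2 of Vcam1, Slc40a1, Hmox1 and Spic were counted in 28 of them (26.7%), against 54 of the 4255 other barcodes below the gene floor (1.27%). The standard 5′ replicate 1 library, with 0 C1q macrophages among kept cells, held 14 such barcodes, all with fewer than 100 genes.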

How the results depend on the processing

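Genes called against other kept cells numbered 799, and 518 with RLE factors, 419 by DESeq2, 1874 with no filter on low counts, 1244 among cells with 3 or more C1q counts, 488 with library totals, and 515 to 771 on leaving out 1 library. Against monocytes the 344 became 219, 44 and 211 with RLE factors, DESeq2 and totals, and 152 to 326 on leaving out 1 library. Of comparisons with 0 calls, modified minus standard 5′ gave 0 to 3 on leaving out 1 library, modified 5′ minus 3′ gave 1 with no filter and 0 to 5, and replicate 2 minus replicate 1 gave 1 with no filter, 1 at 3 or more C1q counts, 7 with B cell counts at 0 and 2 without globin genes. The 1 interaction call (modified minus standard 5′) became 0 with RLE factors, DESeq2, no filter, 3 or more C1q counts, no replicate block, or without the 9 cells rich in globin or antibody transcripts, 2 with B cell counts at 0, 3 without globin genes, and 0 to 5 on leaving out 1 library. The other interactions gave 0 to 3 each on leaving out 1 library, and that of modified 5′ minus 3′ gave 1 without globin genes. The share difference of modified 5′ minus 3′ ran between -0.0976 and 0.232 points on leaving out 1 library, and was 0.314 points at a floor of 100 genes. Genes that reversed against other kept cells were Hbb-bs (-0.53 with B cell counts at 0, -1.13 at 3 or more C1q counts, -5.96 without the 9 cells), Hbb-bt (-0.25 and -6.52 under the last 2), Hba-a2 (-0.18 and -13.90), and, without the library as a block (no replicate block), Igkc (0.44), Ighm (1.42) and Jchain (1.64). Ccl5 against monocytes was at -2.00 at 3 or more C1q counts. Other single genes kept their side of the threshold in 2175 alternatives, lost a call in 218 and gained one in 58. Where no value above shows the cause, the cause was not tested.

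With the replicate block 0 genes were called between protocols within C1q macrophages, and the mean differences in share stayed at 0.306, -0.239 and 0.0671 points. Fits without standard 5′ replicate 2 could not be made where it is the only standard 5′ library. With 60 cells and 46775 counts, a gene at 0 in C1q macrophages lies below 64.1 CPM at the 3-count limit.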

Other observations

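Single cells departed from the rest, as values with no explanation. One C1q macrophage of modified 5′ replicate 1 held 30 counts of Apoe, 17 of Saa3, 14 of Fn1 and 26 of Lyz2, with 0 red pulp counts. In the 3′ libraries 2 cells held counts of natural killer genes: 8 of Klra4, 10 of Ccl5 and 3 of Gzma in replicate 1, and 7 of Klra4, 5 of Ccl5 and 7 of Gzma in replicate 2. With a floor of 100 genes, an alternative chosen after seeing the data, C1q macrophages numbered 15 and 35 in modified 5′ (0.666 and 1.06% of kept cells), 0 and 17 in standard 5′ (0 and 0.480%) and 11 and 31 in 3′ replicates 1 and 2 (0.443 and 0.657%). The differences were then 0.624 points for modified minus standard 5′ (exact permutation p = 0.333) and 0.314 points for modified 5′ minus 3′ (p = 0.333).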
